A study of Sus scrofa with 12 samples.

Results

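SCARA5, AQP3, A2M and ANG are 4 genes grouped here under the heading of resting fibroblast genes. The 4 were followed in pig aortic valve cells before and after culture, and whether fibroblasts carried their signal was not tested. They were taken by name, with every probe set whose single gene symbol is one of them, which gave 6 of 23999 probe sets and 4 of 6765 genes with such a probe set. The names had been picked from the same arrays, for their low level in cultured cells and for a possible partial return under TGF-β1. Their levels and differences are therefore given as a description, without p-values. SCARA5, AQP3 and ANG have 1 probe set each, and A2M has 3.

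The 12 arrays measured total RNA of valvular interstitial cells, the fibroblast-like cells of the valve leaflet, released from aortic valves of adult pigs with collagenase. The P0 group (3 arrays) was freshly isolated, with no culture and no treatment. The 3 other groups (3 arrays each) were P2 cells, passaged 2 times on tissue culture plastic (TCPS) and kept in medium with 1% serum for 3 days. They were left untreated, or collected after 8 h or 24 h with porcine TGF-β1 (5 ng/ml). P0 and P2 cells thus differ in plastic, passage, serum and time at once. The labels call the 3 samples of a group biological replicates, without saying whether they came from separate animals or pools. Each level is a probe set's deposited log2 expression value, so 1 unit is a factor of 2. A level under 4.58, the 95th percentile of 64 reporter control probe sets, is treated as not distinguishable from background. Where 1 of 2 groups lies under it, the fold is a lower bound.

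SCARA5 is a class A scavenger receptor that binds ferritin and carries iron into cells, and it is used as a marker of adventitial and other quiescent fibroblasts. AQP3 is an aquaglyceroporin, a membrane channel for water and glycerol known mainly from epithelia. A2M, alpha-2-macroglobulin, is a secreted trap for proteases that is cleared through the receptor LRP1. ANG, angiogenin, is a secreted ribonuclease of the RNase A family that promotes vessel growth and is held inactive in cells by the inhibitor RNH1. Fibroblasts placed on stiff plastic are known to lose resting features, and TGF-β1 is known to push them further towards matrix-producing myofibroblasts.

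The labelled cell type was checked against marker genes. Of 12 fibroblast markers 9 were on the arrays, all above background on average, with VIM, an intermediate filament of mesenchymal cells, between 15.44 and 15.65 on every array. Most were less even than VIM. From P0 to untreated P2, 5 of the 9 fell and 1 rose, S100A4, by 34.3-fold (limma, adjusted p = 8.35e-07). Of all probe sets tested, 25.8% fell and 33.6% rose in the same comparison. Markers of other cells were present too. The summed level of 9 endothelial markers lay at 11.27 to 11.75 in P0 but spread from 9.97 to 12.34 in untreated P2, from 10.43 to 12.07 at 8 h and from 10.65 to 11.59 at 24 h, with the P2 arrays numbered 3 lowest in each P2 group. Of these markers KDR and VWF lay under 4.58 on average. The summed level of the 7 macrophage markers on the arrays (of 11) was 12.61 to 13.14 in P0 and 8.82 to 9.52 over the P2 arrays. Of the 4 smooth muscle markers on the arrays (of 6) 3 were above background, with a summed level of 12.59 to 13.00 over all arrays. Of these 3, CNN1 and SMTN were higher in untreated P2 than in P0 (log2 difference 1.42 and 1.12), and ACTG2 was lower (-1.90). The red cell gene HBB ran from 8.00 to 8.99. AHSP, the other red cell gene on the arrays, ran from 2.56 to 3.20, under background. Epithelial and lymphocyte markers (4 of 6 and 3 of 6 on the arrays) were all under 4.58 on average. In such bulk samples fewer cells of a type and less RNA per cell cannot be told apart.

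**Figure D1:**
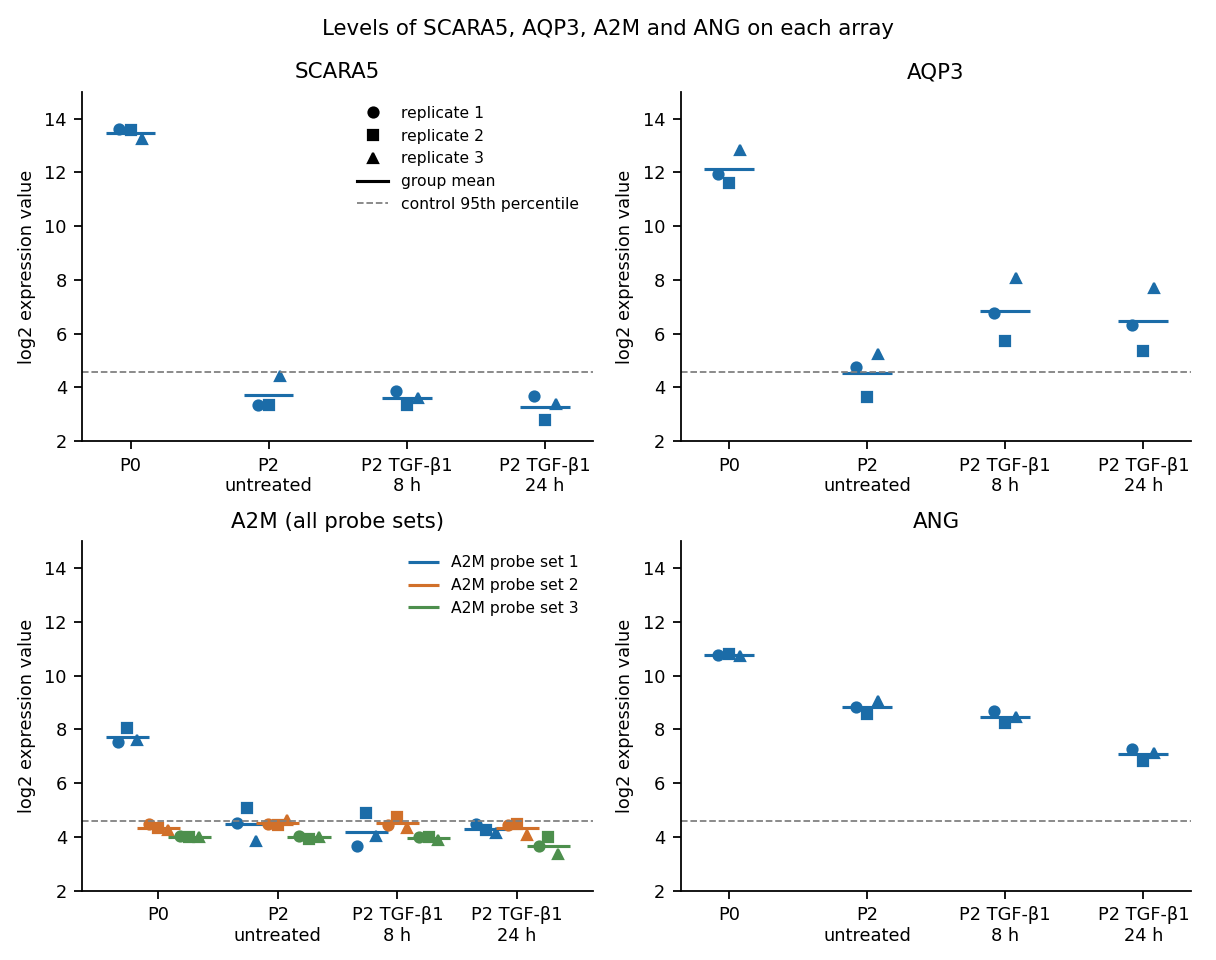
Log2 expression value (vertical axis) of each gene on each of the 12 arrays, by group; symbols mark replicate numbers, bars group means and the dashed line the control level of 4.58. SCARA5 was above the line only in P0, AQP3 lay between P0 and untreated cells under TGF-β1, A2M separated P0 from the P2 groups on 1 of 3 probe sets, and ANG was lowest at 24 h.

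SCARA5, the ferritin receptor, was high in fresh cells and at background in all cultured cells. It read 13.60, 13.57 and 13.23 in P0. In untreated P2 cells it read 3.33, 3.33 and 4.43, at 8 h of TGF-β1 3.87, 3.33 and 3.59, and at 24 h 3.69, 2.79 and 3.38. Each of the 9 P2 arrays was under the control level, and the 3 P2 groups overlapped. The P0 mean of 13.46 ± 0.203 (SD, n = 3) stood at least 471-fold above background. The log2 difference between untreated P2 and P0 was -9.77 as deposited and -8.88 with the P2 mean raised to the control level. The first rests on background in the P2 cells, so its exact size has no meaning beyond the bound. A return under TGF-β1 was not detectable: against untreated cells the log2 difference was -0.10 ± 0.300 (SE) at 8 h and -0.41 ± 0.300 at 24 h, between groups that were both at background.

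AQP3, the water and glycerol channel, was near background in untreated cultured cells and stood higher under TGF-β1. It read 11.94, 11.59 and 12.85 in P0 and 4.74, 3.64 and 5.24 in untreated P2 cells, a level at least 187-fold lower. With TGF-β1 it read 6.76, 5.73 and 8.07 at 8 h and 6.33, 5.35 and 7.69 at 24 h. Both treated groups lay above every untreated array, at 24 h by a narrow gap, and below every P0 array. The treated means were at least 4.82-fold (8 h) and 3.66-fold (24 h) above background, and the 24 h mean was still 50.9-fold under P0. With untreated cells set at the control level, the 8 h mean had regained 30.1% of the log2 difference from P0 and the 24 h mean 24.8%. The 8 h and 24 h groups overlapped, with a log2 difference between them of -0.40 ± 0.666.

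The spread of AQP3 within a group was wide, with SDs of 0.819 to 1.18 in the P2 groups, and it followed the replicate number. Replicate 3 was highest and replicate 2 lowest in each P2 group. Between P2 arrays of the same number, AQP3 was higher than untreated by 2.03, 2.09 and 2.83 (log2) at 8 h of TGF-β1, and by 1.59, 1.71 and 2.45 at 24 h. The 24 h level was lower than the 8 h level in each number, by differences of -0.44, -0.38 and -0.37. The standard error of the TGF-β1 differences was 0.666 without regard to number and 0.173 with the number as a block in the 9 P2 arrays, while the differences themselves stayed at 2.31 and 1.92.

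**Figure D2:**
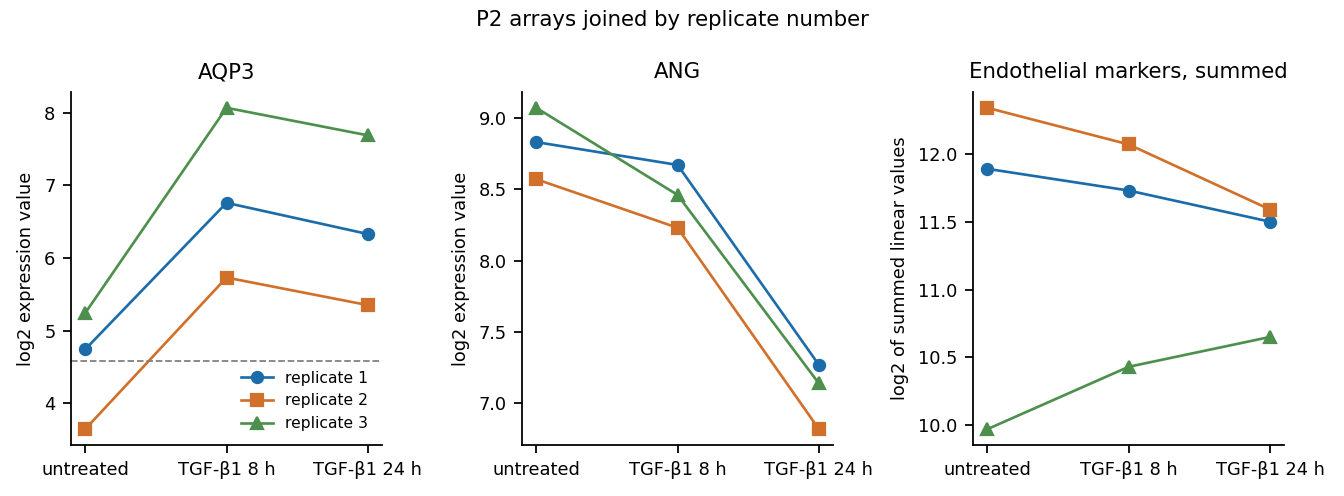
Log2 expression value of AQP3 and of ANG, and log2 of the summed linear values of 9 endothelial markers, in the 9 P2 arrays (horizontal axis: treatment); lines join arrays of the same replicate number, and the dashed line in the AQP3 panel is the control level. AQP3 was higher under TGF-β1 in each of 3 numbers and ANG lower at 24 h in each, while the summed level of endothelial markers was lowest in replicate 3.

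The P2 arrays numbered 3, with the most AQP3, had the lowest summed endothelial markers, at 9.97, 10.43 and 10.65 against 11.50 to 12.34 in the other 6. PECAM1, CDH5, TEK, CLDN5, ICAM2 and EGFL7 were each lowest in replicate 3 of every P2 group. ERG was not, with 9.60, 9.37 and 9.59 at 8 h and 10, 9.58 and 10.13 at 24 h in replicates 1 to 3. The part of endothelial cells in the AQP3 level was not tested. Without the P2 arrays numbered 3 the AQP3 difference from untreated cells was 2.06 at 8 h and 1.65 at 24 h. With any 1 array left out it ran from 1.71 (without 8 h replicate 3) to 2.88 (without 8 h replicate 2) at 8 h, and from 1.30 (without 24 h replicate 3) to 2.47 (without 24 h replicate 2) at 24 h. The 4 markers measured of epithelial cells, where AQP3 is best known (KRT8, KRT18, CDH1 and EPCAM), were each under the control level on every array, and their summed level ran from 5.21 to 5.58.

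A2M, the protease trap, was above background in P0 on 1 of its 3 probe sets. That probe set read 7.52, 8.06 and 7.61 in P0 and 4.52, 5.09 and 3.84 in untreated P2 cells. At 8 h it read 3.65, 4.90 and 4.03 and at 24 h 4.48, 4.24 and 4.16. P0 stood above all P2 arrays, by at least 8.85-fold over background, and the P2 groups overlapped, with 2 of 9 P2 arrays above the control level. TGF-β1 gave log2 differences of -0.29 ± 0.333 at 8 h and -0.19 ± 0.333 at 24 h, between means under the control level, so a return of A2M was not detectable.

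The other 2 A2M probe sets did not show the loss. One ranged from 4.08 to 4.73 and the other from 3.38 to 4.05 over the 12 arrays, and both had all 4 group means under the control level. Their untreated minus P0 differences were 0.17 ± 0.138 and -0.03 ± 0.132. The second of them did not pass the filter for testing. Averaged over the 3 probe sets, the A2M difference between untreated P2 and P0 was -1.03, against -3.25 on the brightest. Which probe set reports A2M best cannot be read from these values, and PZP, a close relative of A2M that neighbours it in the RefSeq annotation, had no single-symbol probe set here. The loss of A2M therefore rests on 1 probe set.

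ANG, the secreted ribonuclease, was lower in culture and lower still after 24 h of TGF-β1. It read 10.78, 10.79 and 10.75 in P0 and 8.83, 8.57 and 9.07 in untreated P2 cells. At 8 h it read 8.67, 8.23 and 8.46, overlapping the untreated arrays, and at 24 h 7.27, 6.82 and 7.14, below all of them. All 12 values were well above the control level, so the folds are measured on both sides. Untreated P2 was 3.87-fold under P0 (log2 difference -1.95 ± 0.161), and 24 h of TGF-β1 was 3.36-fold under untreated (-1.75 ± 0.161) and 13.0-fold under P0. The difference at 8 h was -0.37 ± 0.161. Between arrays of the same number the 24 h difference from untreated was -1.56, -1.75 and -1.93, and the step from 8 h to 24 h was -1.40, -1.41 and -1.32.

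The 4 genes thus shared the lower level in P2 than in P0, by which they were chosen, and differed after TGF-β1. A possible partial return under TGF-β1 was also in view when they were picked. The separation of AQP3 from untreated cells is therefore not independent of that choice. On the A2M probe set above background and on the other genes, P0 lay above untreated P2 without overlap, as did 28.3% of all probe sets tested in that direction, which the choice of genes fixes. At 8 h AQP3 alone of the 4 lay apart from untreated cells, on the higher side, as did 12.8% of all probe sets. At 24 h AQP3 lay above them without overlap, as did 13.4%, and ANG below them, as did 11.9%. Between 8 h and 24 h ANG alone was separate, and 5.83% of all probe sets were lower without overlap. At 24 h all 4, A2M only on its probe set above background, were still below every P0 array, beside 28.3% of probe sets lower without overlap. The 2 TGF-β1 comparisons share their untreated arrays, and the 2 comparisons with P0 share the P0 arrays.

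The other genes linked to each of the 4 were read from lists and tested gene by gene with limma over all 17638 probe sets, with Benjamini-Hochberg adjustment. In total 83 of 152 listed genes were measured, some of them in more than 1 list. Between untreated P2 and P0, 14 rose and 49 fell, while 59.4% of all probe sets were called (33.6% higher, 25.8% lower). At 8 h of TGF-β1 2 rose and 4 fell (5.07% of all called, with 2.53% in each direction), and at 24 h 3 rose and 14 fell (8.49% of all, 4.27% higher and 4.22% lower). Between 8 h and 24 h 1 was called (0.232% of all), and between 24 h and P0 63 (62.5% of all). With replicate number as a block in the P2 arrays, these became 4 and 14 at 8 h and 7 and 31 at 24 h. Calls over all probe sets tested rose with this block too, from 894 to 2200 at 8 h and from 1498 to 3519 at 24 h. Between 8 h and 24 h they rose from 41 to 430. At 24 h the 17 calls became 9 without untreated replicate 3, and 11 without untreated replicate 1, without 24 h replicate 1 or without 24 h replicate 2. The median log2 difference of the 83 genes was -1.03 in culture, -0.14 at 8 h and -0.29 at 24 h, beside 0.07, -0.01 and 0.01 over all probe sets tested.

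Most other listed genes of resting fibroblasts fell in culture. Of 23 measured 22 fell and 0 rose, with a median of -2.85 and 22 at an unadjusted p under 0.05. Over all probe sets tested 25.8% fell. CLEC3B, tetranectin, fell most (74.6-fold, log2 difference -6.22 ± 0.152 SE, adjusted p = 6.5e-11), while IGFBP6 did not pass (-0.04 ± 0.303, adjusted p = 0.912). CLEC3B lay at 5.04 to 5.54 on all P2 arrays, above the control level, and did not pass under TGF-β1 at 24 h (-0.12 ± 0.152, adjusted p = 0.722). At 24 h 5 of the 23 fell further and 1 rose. Those that fell were CD34, FBLN1, C7, GPX3 and SERPING1, and GPX3, a secreted glutathione peroxidase, changed most (-1.23 ± 0.255, adjusted p = 0.0117; up to 0.112 without untreated replicate 3 or without the P2 arrays numbered 3). C7 and SERPING1, both of the complement system, kept their calls in 7 and 9 of 15 alternatives. The gene that rose was PCOLCE2, which enhances procollagen processing: it read 13.55, 13.75 and 13.74 in P0, 11.51, 10.99 and 11.47 in untreated P2, 11.93, 11.67 and 11.96 at 8 h, and 12.78, 12.60 and 12.93 at 24 h. Its rise at 24 h was 1.44 ± 0.156 (adjusted p = 0.00033), and the P2 fall had been -2.35 ± 0.156. With the number as a block 2 rose and 8 fell at 24 h, and C7 no longer passed (adjusted p = 0.0595).

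Iron handling genes and scavenger receptors, the surroundings of SCARA5, gave 4 rises and 6 falls among 16 measured in culture (median -0.11). That is near the share called over all probe sets tested, 59.4%. The ferritin chains FTH1 (-0.06 ± 0.0989, adjusted p = 0.628) and FTL (0.12 ± 0.0915, adjusted p = 0.272) did not pass. CD163, the haemoglobin receptor of macrophages, fell 46.7-fold (-5.55 ± 0.478), together with the macrophage markers above. TF, also among the falls, met the filter for testing through P0. Of the P2 arrays only untreated replicate 2 was over log2 4 for it, at 4.06. HMOX1, which degrades haem, fell 3.89-fold (-1.96 ± 0.336), and SCARB1, the lipoprotein receptor, rose 2.96-fold (adjusted p = 5.86e-05). Under TGF-β1 at 24 h 0 rose (4 of 16 had an unadjusted p under 0.05) and 1 fell, SLC25A37, the mitochondrial iron importer (-0.67 ± 0.137, adjusted p = 0.011), a call lost without the P2 arrays numbered 3 (adjusted p = 0.0655). With the number as a block 4 fell.

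Of the other aquaporins and glycerol genes 6 were measured. In culture 3 rose and 2 fell (median 0.27), beside 59.4% of all probe sets called. Under TGF-β1 0 rose and 1 fell at both 8 h and 24 h, with 2 genes at an unadjusted p under 0.05 each time. With the number as a block 0 rose and 2 fell at each time, AQP11 being the added one (adjusted p = 0.0181 and 0.0118). AQP1, the water channel of vessels, fell in culture from 12.76, 12.76 and 13.02 to 10.96, 9.90 and 11.89 (-1.93 ± 0.584, adjusted p = 0.0131; 0.0606 without untreated replicate 2). It did not pass at 8 h (0.17 ± 0.584, adjusted p = 0.94) or 24 h (-0.22 ± 0.584, adjusted p = 0.881). Another AQP1 probe set differed by only -0.48 in culture and by -0.23 at 24 h. AQP1 was also lowest in replicate 2 and highest in replicate 3 of each P2 group, the order seen for AQP3. AQP5 was under the control level in every group. GPD2, the mitochondrial glycerol phosphate dehydrogenase, rose at least 4.13-fold in culture, and its cytosolic relative GPD1L fell by 1.58 at 8 h and 1.51 at 24 h on the log2 scale (adjusted p = 0.00225 and 0.00126).

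**Figure D3:**
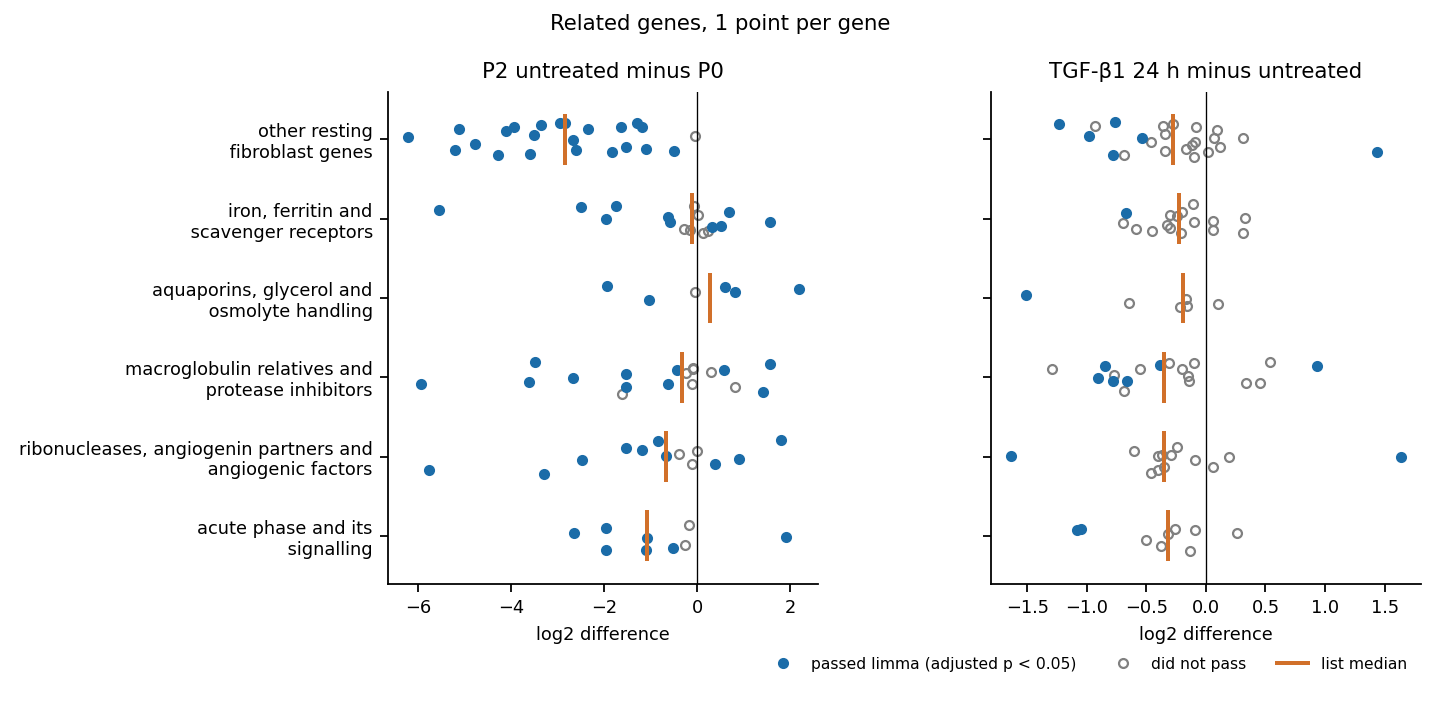
Log2 difference (horizontal axis) of each measured gene in the 6 lists of related genes, in culture (left) and after 24 h of TGF-β1 (right, on a narrower scale); filled points passed limma's test and orange bars are list medians. In culture 22 of 23 other resting fibroblast genes fell, whereas under TGF-β1 most points did not pass.

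Protease inhibitors and relatives of A2M gave 3 rises and 8 falls among 18 measured in culture (median -0.33). That too is near the 59.4% called over all probe sets. C4A, a complement protein of the same thioester family, fell 61.5-fold (-5.94 ± 0.340, adjusted p = 4.21e-08), and TIMP3, a metalloprotease inhibitor, fell 11.2-fold. SERPINE2 (1.57 ± 0.177), a thrombin inhibitor, and TIMP1 (1.41 ± 0.178) rose. LRPAP1, the chaperone of the A2M receptor LRP1, did not pass (-0.10 ± 0.158, adjusted p = 0.604). At 24 h of TGF-β1 1 of the 18 rose, SLPI, an inhibitor of elastase (0.93 ± 0.209, adjusted p = 0.0181; up to 0.0862 without untreated replicate 1 or 3, 24 h replicate 1 or 2, or with only the 2 groups fitted), and 5 fell, among them SERPINB1 (-0.91 ± 0.168, adjusted p = 0.00657); with the number as a block these were 4 and 9. Acute phase genes, a class to which A2M belongs in some mammals, gave 1 rise and 6 falls among 9 in culture, with SOCS3, the feedback inhibitor of interleukin 6 signalling, at least 2.15-fold lower. At 24 h 0 rose and 2 fell, CEBPD (-1.08 ± 0.177, adjusted p = 0.00355) and IL6 (-1.05 ± 0.221, adjusted p = 0.0124; 0.0544 without untreated replicate 1). With the number as a block 4 of the 9 fell, JAK1 and STAT3 added (adjusted p = 0.0188 and 0.0397).

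Ribonucleases and angiogenic factors, the company of ANG, gave 3 rises and 7 falls among 13 in culture (median -0.68), beside 59.4% of all probe sets called. RNASE1, the secreted ribonuclease of vessels, fell 54.4-fold (-5.76 ± 0.262), and RNH1, the inhibitor that binds ANG, rose 1.85-fold (0.89 ± 0.123, adjusted p = 5.38e-05). At 24 h of TGF-β1 1 rose and 1 fell. VEGFA, the main vessel growth factor, rose 3.12-fold (1.64 ± 0.216, adjusted p = 0.000951) in the same cells in which ANG stood lower, and RNH1 did not pass (0.06 ± 0.123, adjusted p = 0.847). The 2 other VEGFA probe sets differed by 0.46 and 1.49. With the number as a block 1 rose and 5 fell.

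The gene that fell at 24 h was RNASE4, a ribonuclease listed next to ANG in the RefSeq annotation of the pig assembly Sscrofa11.1. RNASE4 read 14.39, 14.50 and 14.46 in P0, 12.01, 11.38 and 12.54 in untreated P2, 11.75, 11.11 and 12.03 at 8 h, and 10.37, 10 and 10.66 at 24 h. It fell by 2.47 ± 0.289 on the log2 scale in culture (adjusted p = 1.35e-05) and by 1.64 ± 0.289 at 24 h of TGF-β1 (adjusted p = 0.00533), where ANG differed by -1.95 and -1.75. From 8 h to 24 h it changed by -1.29 ± 0.289, which did not pass (adjusted p = 0.13) but passed with the number as a block (0.00336). In some mammals the 2 genes are known to share a promoter region. The annotated bodies do not overlap here, and no sequence of either probe set was used to check for shared signal.

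The genes with the most similar profiles were ranked by the root mean square difference over the 12 arrays, each profile centred on its own mean, among 6010 other genes. These distances are dominated by the step from P0 to P2 and are given as a description. For ANG the nearest were C1R, a complement protease (0.265), RNASE4 (0.304) and the chloride channel protein CLIC2 (0.396), each highest in P0 and lowest at 24 h. C1R had group means of 14.35, 12.30, 11.91 and 11.09, and CLIC2 10.13, 8.08, 7.40 and 6.81, in the order P0, untreated, 8 h and 24 h.

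For the A2M probe set above background the nearest were TYROBP (0.313) and C1QA (0.329), both known from macrophages, and TOB1, an antiproliferative factor (0.386). In group means, TYROBP stood at 9.72 in P0 and at 6.67, 6.59 and 6.41 in untreated, 8 h and 24 h P2 cells, and C1QA at 9.84, 6.59, 6.41 and 6.25. Over the P2 arrays A2M was mostly under the control level, so the likeness rests on the step from P0. The part of macrophages in the A2M level was not tested. Of the 7 macrophage markers measured 6 fell in culture and 0 rose, while 25.8% of all probe sets fell.

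For SCARA5 the nearest profiles were less close, at 0.956 for the chemokine CCL4, 1.06 for the monooxygenase FMO1 and 1.1 for the complement regulator C4BPA, all high in P0 and low over the P2 arrays, where FMO1 was under the control level. For AQP3 they were CILP (0.985) and COMP (1.09), both matrix proteins of cartilage-like tissue, and IRF8 (1.11), a transcription factor of myeloid cells. CILP and COMP each have 1 other probe set, which differed by only -0.18 and -0.26 (log2) between untreated P2 and P0. Their low P2 levels thus rest on 1 probe set each. CILP and IRF8 had all P2 group means under the control level, so a step under TGF-β1 cannot be read for them. COMP had a mean of 5.02 in untreated cells, 5.66 at 8 h and 5.22 at 24 h, against 4.54, 6.85 and 6.46 for AQP3. COMP did share the high replicate 3, at 6.68 against 4.19 and 4.18 in untreated cells.

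**Figure D4:**
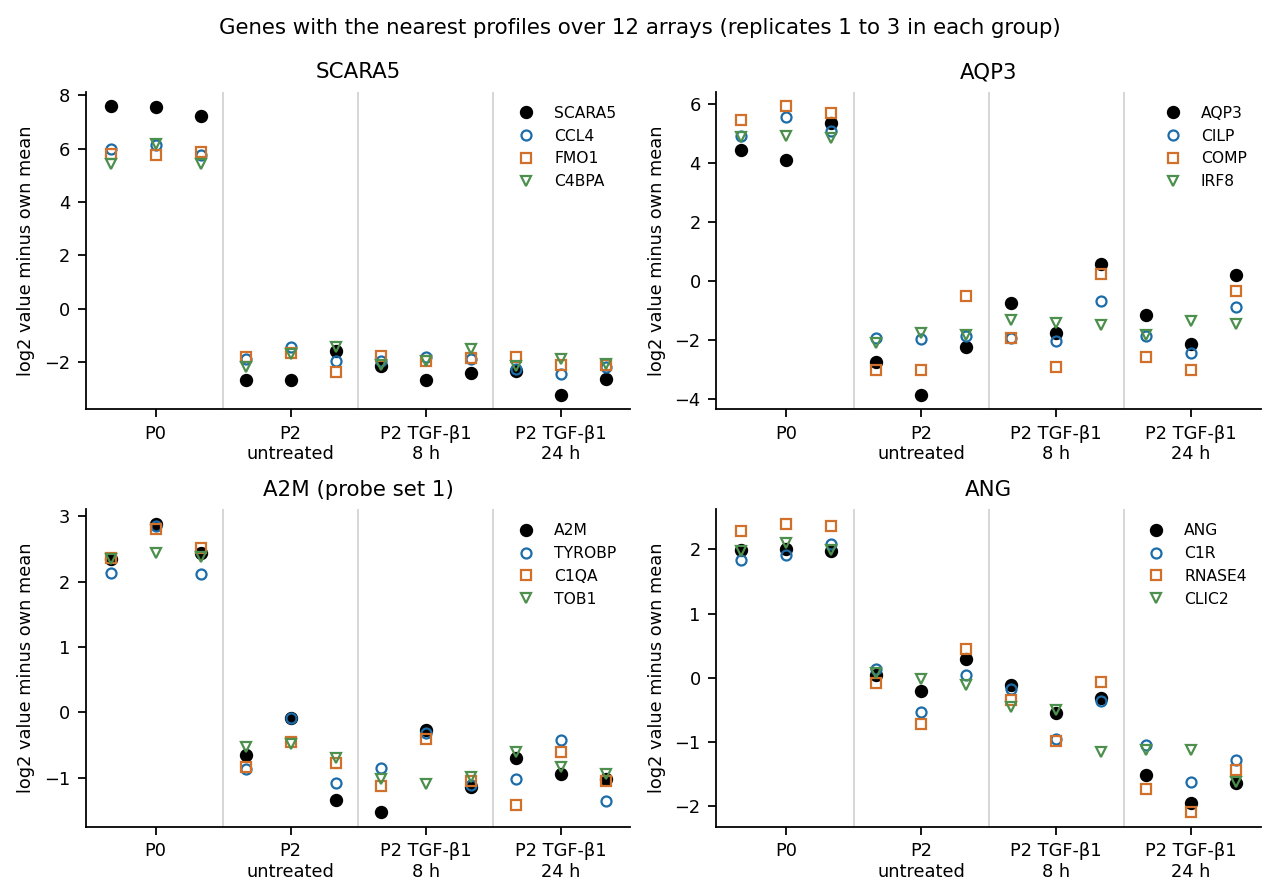
Log2 value minus the gene's own mean over 12 arrays (vertical axis) for each gene and its 3 nearest profiles, with arrays 1 to 3 of each group from left to right and grey lines between groups. RNASE4 and C1R step down with ANG at 24 h, whereas 2 of the 3 genes nearest to AQP3, CILP and IRF8, have P2 means under the control level.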

How the data were processed

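Total RNA was hybridised to Affymetrix porcine 3' IVT arrays. The deposited table holds log2 expression values, 1 column per array; GCRMA appears in the submitters' processing notes, and its version and any scan batch were not given in the sources used here. Values ran from 1.74 to 15.95 and array medians lay within 0.0734, so no further normalization was applied. The small number of arrays limits the precision (median SE 0.159).

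Of 10267 annotated probe sets, 9961 matched a RefSeq gene by Entrez ID, all with the same symbol; 10069 carried 1 symbol, 198 several, and 13732 had none listed. The 64 reporter controls were left out. A probe set was tested if over log2 4 in at least 3 of 12 arrays (17638). A gene outside the 4 was represented by its single-symbol probe set with the highest mean. Group means were fitted with limma 3.58.1 in R 4.3.3 (lmFit, eBayes; 8 residual and 3.745 prior degrees of freedom), two-sided, called at adjusted p under 0.05. SEs come from this fit; the pipeline was tested on simulated data. The p-values set a group difference against the spread between these samples, without regard to replicate number unless a block is stated.

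The 4 genes, lists and tests were chosen with earlier results of these data known. Named list genes came from the 4 largest called changes per list in culture and at 24 h, or, for a list without calls, the 2 with the lowest p; others named (CD34, FBLN1, JAK1, STAT3, IGFBP6, FTH1, FTL, AQP5, SCARB1, LRPAP1, SERPINE2, TIMP1, RNH1) were chosen after their values were seen. The 3 nearest profiles of each gene were also named. Of the list genes this rule picked, CXCL12, TNXB, C3, HAMP, SERPINB2, PTN, MDK, ITIH4, SAA2 and SPINT2 are not described above. In culture MDK (3.51-fold) and SAA2 (3.75-fold) rose and the others of these fell.

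Replicate numbers pair the P2 samples: after removal of group means, same-number P2 arrays of different groups correlated at 0.348 to 0.679 (9 pairs), and those of different numbers at 0.0796 or less. Numbers did not pair P0 with P2 (-0.0916 to 0.0158). Within a group, arrays correlated at 0.989 to 0.995 and none were identical.

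Alternatives were no filter, a filter at log2 6, quantile normalization, median centring, only the 2 groups compared, each array left out, a replicate block, averaged probe sets, another eBayes setting and means raised to the control level. Leaving out the P2 arrays numbered 3 was added after seeing the data. No sequences of the 4 genes or their probes were used here.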

Additional observations from a re-analysis of the deposited data

Results flagged for a closer look

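PCOLCE2, a gene of the resting fibroblast list, differed between the 2 times of TGF-β1: its level at 24 h was above that at 8 h by 0.92 ± 0.156 on the log2 scale (limma, adjusted p = 0.0411), higher in each of 3 replicate numbers. With replicate number as a block in the P2 arrays the adjusted p was 0.00783. The call was lost in 9 of 15 alternatives, including every fit that left out 1 array of the 8 h or 24 h group and the one without the P2 arrays numbered 3, with an adjusted p of up to 0.184.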

How the results depend on the processing

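The log2 differences of the 4 genes moved by less than 1 SD between replicates under every alternative, apart from the 5 values given next. Raised to the control level, SCARA5 differed from P0 by -8.88 both untreated and at 24 h, and A2M by -3.15 at 24 h. Averaged over 3 probe sets, A2M differed by -1.03 untreated and -1.26 at 24 h. With 1 array left out the differences kept their sign, except SCARA5 at 8 h (-0.28 to 0.27), A2M at 8 h (-0.64 to 0.01), at 24 h (-0.51 to 0.11) and from 8 h to 24 h (-0.17 to 0.45), and AQP3 from 8 h to 24 h (-1.01 to 0.21). Calls among related genes, 63 in culture, stayed at 56 to 60 when 1 array was left out, and 63 at 24 h against P0 at 59 to 65. At 8 h, 6 calls ran from 4 to 6, and became 10 with a replicate block over 12 arrays and 18 over the 9 P2 arrays. At 24 h, 17 ran from 9 to 20, and became 38 with the block over P2 arrays and 10 with only the 2 groups compared. From 8 h to 24 h the single call became 0 without any 1 array, without the filter, with 2 groups only and without the arrays numbered 3, and 3 or 8 with the blocks (20 genes had an unadjusted p under 0.05 in limma). Of 24 genes the rule named in culture 22 passed in all alternatives, and of 13 at 24 h 6 did. Signal over background limits SCARA5 and A2M in P2 cells, where a return below log2 4.58 could not be seen.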
